A study of Mus musculus with 8 samples.

Results

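The 40 genes described here encode proteins that write, erase, read or move chromatin in mouse DN3 thymocytes: Polycomb subunits, histone and DNA methylation enzymes, nucleosome remodellers, histone deacetylases and acetyltransferases, CTCF and cohesin. All 40 were found in the gene table, and their loci, each taken as the gene body with 10 kb on either side, held 683 of the 180321 accessible regions called in the series. Accessibility was measured by ATAC-seq, in which a transposase cuts open chromatin, and each library was deposited as a list of peaks. The DN3 cells came from C57BL/6 mice, and the labels put 2 libraries in each of 2 groups. The genotypes differ at N-Me, the Notch-Myc enhancer, a distal element of Myc: it is wild type in one group, and in the other GATA sites 1 and 2 of it are mutated on both alleles. The labels do not give the age or sex of the animals, how the DN3 cells were isolated, whether animals were pooled, or whether replicates were separate animals, so a p-value here measures only the spread between these libraries. The 4 samples of T-cell leukaemia were not analysed here.

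DN3 thymocytes are T-cell precursors at the stage where the T-cell receptor beta chain is tested, and they depend on Notch signalling. Polycomb repressive complexes silence genes, PRC2 methylating histone H3 and PRC1 ubiquitinating histone H2A, while the trithorax-type methyltransferases and SWI/SNF remodellers act on the active side. Several of these genes, among them Ezh2, Suz12, Eed, Phf6, Dnmt3a and Kdm6a, are known for loss-of-function mutations in T-cell leukaemia.

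The markers of the labelled cell type were checked first. All 10 DN3 and T-lineage markers, Ptcra, Il2ra, Rag1, Rag2, Notch1, Cd3e, Bcl11b, Tcf7, Gata3 and Lck, had a peak at the gene start in all 4 libraries. Of the markers of other cells, 3 of 5 B-cell, 2 of 5 myeloid, 2 of 5 erythroid and 3 of 5 thymic stroma genes had a start peak in all 4. The mutant libraries each called 3, 2, 2 and 3 of these lists in that order, and the wild-type libraries 3 or 4 B-cell, 4 myeloid, 3 erythroid and 3 or 4 stroma genes. Of the erythroid genes, Gata1 and Hba-a1 were called in none and Slc4a1 in the wild-type libraries alone. Klf1 and Epor were called in all 4, with folds of 8.70, 8.54, 8.33 and 8.74, and 5.92, 5.08, 4.60 and 4.55. An open start is not a measure of cell number, and the part of other cells in the results was not tested. The Y-linked genes Uty, Kdm5d, Ddx3y and Eif2s3y had a peak at a gene end in all 4 libraries, as did Xist.

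Nearly all of these regulators were open at their starts in both genotypes. A start peak, meaning a peak within 1 kb of an annotated start, was called in all 4 libraries for 39 of 40 genes (97.5%), against 66.8% of 21887 protein-coding genes. Among 122 other chromatin genes, listed with earlier results of these data known, 118 had one in all 4. The exceptions there were Ctcfl, Hdac9, Nipbl and Smarcd2. The single exception among the 40 under this limit was Rad21, the cohesin subunit that closes the ring. A region just over 1 kb inside an annotated end of Rad21 was called in all 4 libraries, so a closed start is not shown. The sources used here give no start for Rad21, Hdac1, Hdac3, Kdm6b, Stag2 and Phf6, so both annotated gene ends were searched for these 6.

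Promoter letters are shown for the Ezh1 and Smc3 starts, which had 2 of the 3 strongest peaks of the 40 genes by mean percentile over the lists, and for Bmi1, Jarid2 and the first start of Hdac7, 3 of the 5 weakest by that measure. Each is the 250 bases before the annotated start, 5′ to 3′ on the gene's strand, from the RefSeq promoter table (GRCm38.p6), and each lies outside the annotated gene. Positions are chr11:101226464-101226713 (minus strand) for Ezh1, chr19:53600146-53600395 (plus) for Smc3, chr2:18676768-18677017 (plus) for Bmi1, chr13:44730524-44730773 (plus) for Jarid2 and chr15:97844503-97844752 (minus) for Hdac7. Capitals mark an exact match, on either strand, to any of the motifs named after the sequences.
Ezh1: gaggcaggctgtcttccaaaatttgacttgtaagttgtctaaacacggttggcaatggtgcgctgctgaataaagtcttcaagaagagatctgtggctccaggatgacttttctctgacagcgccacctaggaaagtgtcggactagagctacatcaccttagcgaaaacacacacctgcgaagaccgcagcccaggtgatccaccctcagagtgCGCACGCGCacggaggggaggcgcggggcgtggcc
Smc3: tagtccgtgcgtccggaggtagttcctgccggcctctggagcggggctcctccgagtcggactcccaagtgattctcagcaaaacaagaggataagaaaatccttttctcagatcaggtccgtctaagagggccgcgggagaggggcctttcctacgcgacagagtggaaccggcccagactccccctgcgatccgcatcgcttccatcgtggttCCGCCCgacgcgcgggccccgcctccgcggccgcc
Bmi1: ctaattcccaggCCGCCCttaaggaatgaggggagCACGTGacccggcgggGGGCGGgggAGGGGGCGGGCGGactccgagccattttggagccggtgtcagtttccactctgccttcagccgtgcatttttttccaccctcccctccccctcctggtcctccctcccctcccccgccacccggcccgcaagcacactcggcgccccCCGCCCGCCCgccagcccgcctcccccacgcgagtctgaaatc
Jarid2: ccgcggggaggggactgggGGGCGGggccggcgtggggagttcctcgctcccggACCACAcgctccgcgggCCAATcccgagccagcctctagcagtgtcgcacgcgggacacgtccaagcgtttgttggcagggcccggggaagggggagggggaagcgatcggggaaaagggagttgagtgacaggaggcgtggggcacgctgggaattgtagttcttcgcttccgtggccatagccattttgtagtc
Hdac7: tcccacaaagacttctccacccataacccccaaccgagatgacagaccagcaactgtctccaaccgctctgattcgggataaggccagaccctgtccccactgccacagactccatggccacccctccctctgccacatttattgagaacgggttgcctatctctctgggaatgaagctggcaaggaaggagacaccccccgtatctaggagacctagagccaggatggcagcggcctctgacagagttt

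Of the 40 genes, 34 matched the promoter table, with 45 promoters, and were set beside 21263 promoters of the same length. The GC box GGGCGG was in 36 of the 45 (80%), against 42.6% of all promoters, and the CTCF core AGGGGGC in 15 (33.3%) against 11.6%. These motifs share letters where AGGGGGC is followed by GG, as in the Bmi1 promoter, and such a stretch counts for both. The members' promoters were richer in G and C, with a median of 67.6% against 55.6%, and a median of 23 CpG pairs against 10. The TATA box TATAAA was in 1 promoter, the second start of Jarid2, against 11.6% of all, and the CCAAT box CCAAT in 12 (26.7%) against 35.4%. Of the GATA letters, AGATAA was in 2 promoters (Chd4 and Hdac7) and TGATAA in 2 (Arid1a and Ctcf), or 4.44% each, against 8.81% and 6.94%. The E-box CACGTG, bound by MYC and MAX, was in Bmi1, Kdm6a and Dnmt3a (6.67%, against 6.63%). The ETS letters CCGGAAG were in 4.44% against 8.98%, the RUNX letters TGTGGT in 8.89% against 12.4%, and the NRF1 letters GCGCNTGCG in 8.89% against 7.09%. The YY1 letters AAGATGGC were in none of the 45, against 1.496% of all. The 5 printed promoters differ in these letters: Ezh1 holds NRF1 letters and no GC box, and the first Hdac7 start holds none of the 11 motifs.

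Start peaks differed widely in strength between the 40 genes. They were ranked by the percentile of their fold among all start peaks of each list, averaged over the lists. Ezh1 was at the top and Kdm6b at the bottom. Kdm6b and Rad21 were ranked by a peak near an annotated gene end that is not known to be the start. Fold enrichment is the authors' value for each peak over local background, and it is used here to describe and rank peaks within a list. The median start peak of the 40 genes had a fold of 5.66 and 5.75 in the wild-type lists and 4.86 and 4.96 in the mutant lists. Over all protein-coding start peaks the medians were 6.22, 6.01, 5.35 and 5.55, so the members lay a little under the middle of each list. Their start peaks were wider than most, with medians of 1421, 1369, 1515 and 1483 bp against 1059, 1073, 1243 and 1198 bp. The fold is an average over the peak. Across the members, log2 width and log2 fold had Pearson r from -0.28 to 0.00056 in the 4 lists, a description over genes that share their libraries.

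**Figure D1:**
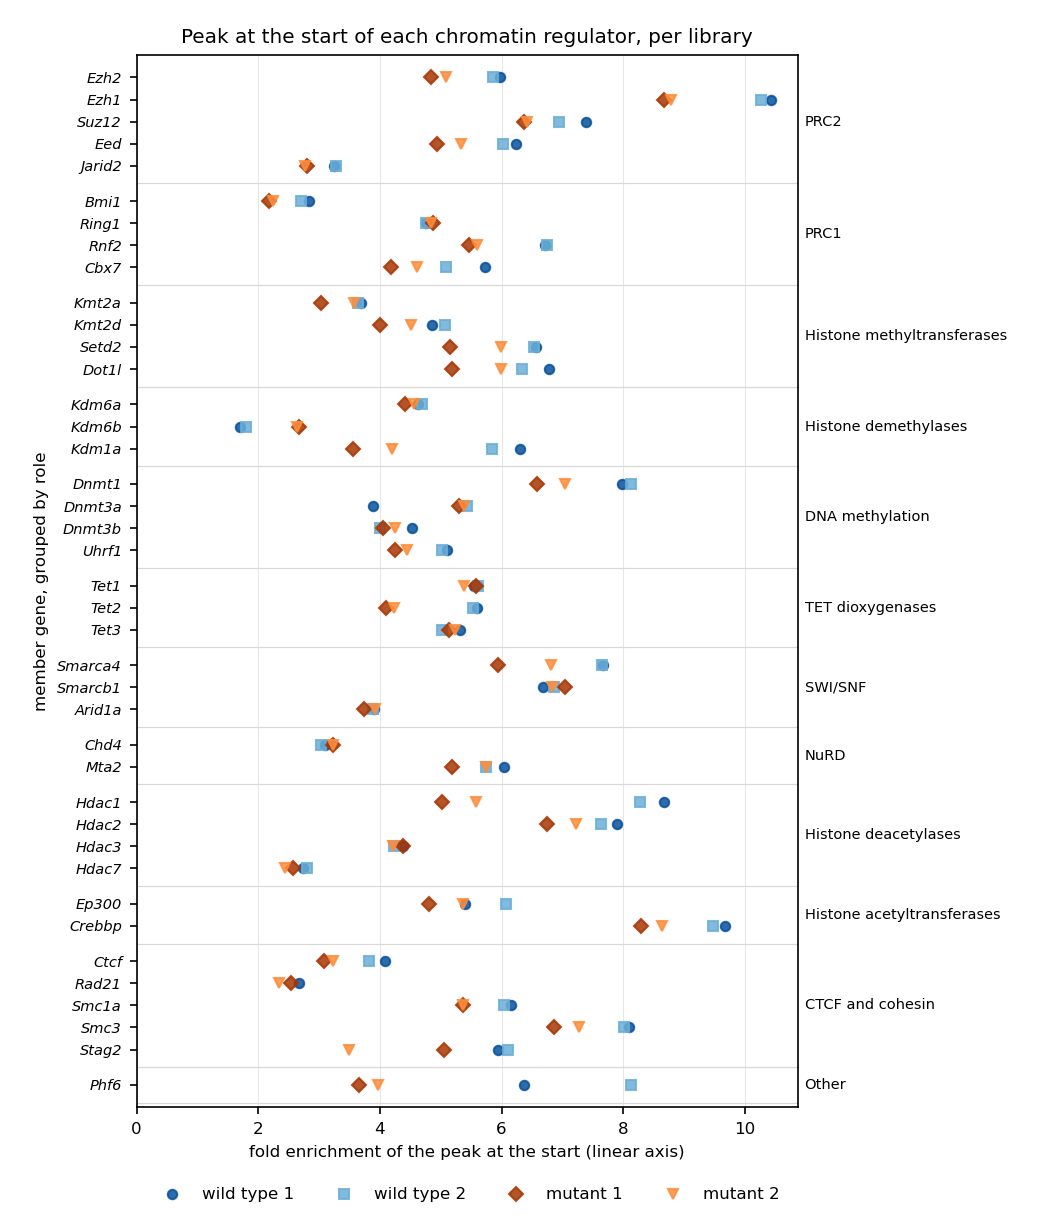
Fold enrichment (horizontal axis, linear, no unit) of the peak at the start of each of the 40 genes, 1 point per library, for either annotated gene end where no start is given; circles and squares are wild-type libraries, diamonds and triangles mutant libraries. Ezh1 and Crebbp stand at the right in all 4 libraries and Bmi1, Hdac7, Jarid2 and Kdm6b at the left, and Rad21 lacks a point for wild type 2.

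In PRC2, Ezh1 had the strongest start peak of the 40 genes and Jarid2 one of the weakest. Ezh1, the methyltransferase that partners PRC2 in place of Ezh2, had folds of 10.4 and 10.3 in wild type and 8.67 and 8.79 in mutant, between the 93.1 and 94.6 percentile of the start peaks of each list. Ezh2, the main methyltransferase of dividing cells, had folds of 5.97, 5.86, 4.85 and 5.09. The core subunits Suz12 and Eed had 7.38, 6.94, 6.37 and 6.42, and 6.23, 6.02, 4.94 and 5.34. Jarid2, which helps to recruit PRC2, had folds of 3.24 and 3.28 in wild type and 2.80 and 2.76 in mutant. The PRC2 genes had lower values in both mutant lists, as did the median start peak of each whole list. So did Rnf2, Dnmt1, Crebbp, Smc3 and Hdac2, among others of the 40, while Ring1, Chd4 and Kdm6b went the other way. At Kdm6b this held for the peak within 1 kb of a gene end. The strongest peak of the whole region there was higher in wild type. The share of all start peaks with this pattern was not counted, and these values were not tested between libraries.

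PRC1 genes had start peaks of fold 2.18 to 6.74, with Bmi1 lowest and Rnf2 highest. Bmi1, a RING-finger partner in PRC1, had folds of 2.83 and 2.70 in wild type and 2.18 and 2.25 in mutant. Ring1, a ubiquitin ligase of the complex, had 4.76, 4.76, 4.88 and 4.83, values in which the genotypes lay close together. The second ligase, Rnf2, had 6.71, 6.74, 5.46 and 5.60, and the chromodomain reader Cbx7 had 5.72, 5.09, 4.18 and 4.61.

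At histone methylation genes, Kdm6b had the lowest mean percentile of the 40 over the 4 lists, although Bmi1 was lower in both mutant lists. Kdm6b, a demethylase that removes the Polycomb mark, had end peaks of fold 1.698 and 1.799 in wild type and 2.67 and 2.64 in mutant. The whole region there, chr11:69417250-69420639, held 3 peaks in each wild-type list and 1 in each mutant list, and the strongest wild-type peak in it had folds of 3.40 and 3.19. The region is also at the ends of Dnah2 and Gm51903. Kdm6a, the X-linked relative of Kdm6b, had 4.63 and 4.69 in wild type and 4.42 and 4.57 in mutant, and its Y-linked relative Uty had 8.28, 8.52, 5.26 and 5.56. Kdm1a, the LSD1 demethylase, had 6.30 and 5.85 in wild type and 3.56 and 4.20 in mutant. The methyltransferases Kmt2a, Kmt2d, Setd2 and Dot1l had folds from 3.04 (Kmt2a, mutant 1) to 6.79 (Dot1l, wild type 1).

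Among the DNA methylation genes, Dnmt1 and Dnmt3a each have several annotated starts. Dnmt1, which copies methylation after replication, had folds of 7.97, 8.12, 6.58 and 7.05 at the second and the third of its annotated starts. At its first start, 6.91 kb before the second, only the wild-type libraries had a peak, of fold 2.80 and 2.18. That region, chr9:20960286-20960480, lies upstream of the start, and it was the only start region of the 40 genes called in 1 genotype alone. Dnmt3a, a methyltransferase that sets new marks, was called in all 4 libraries at its first pair of starts, with folds of 3.88, 5.43, 5.29 and 5.38. It was also called at the third start, 84.8 kb on, with 3.04, 3.04, 3.35 and 3.24. Dnmt3b had 4.526, 4.004, 4.057 and 4.256, and Uhrf1, which brings Dnmt1 to newly copied DNA, had 5.11, 5.03, 4.25 and 4.44. The TET genes, whose enzymes oxidise methylated cytosine, had folds from 4.11 to 5.61.

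Among the remodellers and acetylation enzymes, Crebbp and Hdac7 marked the extremes. Crebbp, a histone acetyltransferase, had folds of 9.67 and 9.48 in wild type and 8.29 and 8.63 in mutant. Its peak lay 475 to 1135 bp upstream of the start in the promoter table and did not cover that start in any library. The gene table puts the upstream end of Crebbp at chr16:4213957, and the peak covered that base in every library. The related Ep300 had 5.40, 6.06, 4.81 and 5.37. Hdac7, the class IIa deacetylase of thymocytes, had 4 annotated starts, each called in all 4 libraries and each weak. Its best start peak had folds of 2.74, 2.80, 2.58 and 2.43. Hdac2, a class I enzyme, had 7.89, 7.63, 6.74 and 7.22. The SWI/SNF ATPase gene Smarca4 and the core subunit gene Smarcb1 had folds from 5.94 to 7.67, Arid1a from 3.74 to 3.93, and the NuRD genes Chd4 and Mta2 from 3.02 to 6.05.

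CTCF blocks cohesin as it extrudes loops, and the cohesin genes differed in fold at their starts, or at an annotated end for Stag2 and Rad21. Smc3, a ring subunit, had folds of 8.10 and 8.01 in wild type and 6.86 and 7.27 in mutant, and its X-linked partner Smc1a had 6.15, 6.04, 5.36 and 5.36. Smc1a starts 133 bp from Ribc1 on the other strand, so its peak cannot be assigned to either gene. The same limit holds for starts of Tet3 (77 bp from B230319C09Rik), Ezh2 (179 bp from F830010H11Rik), Mta2, Hdac7 and Ctcf, which each have a start of another gene within 1 kb on the other strand. Ctcf had 4.08, 3.81, 3.08 and 3.24, and Stag2 had 5.94, 6.11, 5.05 and 3.49. At Rad21 the nearest end peak had a fold of 2.66 in wild type 1, none in wild type 2, and 2.54 and 2.34 in mutant. A stronger region, chr15:51990423-51992411, lies inside the annotated gene, 1127 bp from its other end and at Gm52217, with folds of 7.57, 6.54, 4.51 and 4.71. Which of these ends is the start of Rad21 is not given, so a weak start is not shown. With a 5 kb limit in place of 1 kb, all 40 genes had a start peak in all 4 libraries.

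With start regions included, the median locus held 13 regions against 5 over all protein-coding loci, or 21.8 per 100 kb against 13.1, with 19.0 for the other chromatin genes. Of the 683 regions, 53 were at starts, 493 elsewhere in the gene body and 137 in the flanks. The gene table has no exons, so exon and intron were not told apart. Regions called in all 4 libraries numbered 361 (52.9%), against 56.7% of all regions. At starts 47 of 53 were called in all 4, in gene bodies 227 of 493 and in flanks 87 of 137. The 4 X-linked loci, of Kdm6a, Smc1a, Stag2 and Phf6, had 42% of 50 regions called in all 4, against 53.7% of 633 regions at the autosomal loci. The share over all X-linked regions was not counted. Other genes also end at 66 of the 683 regions.

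**Figure D2:**
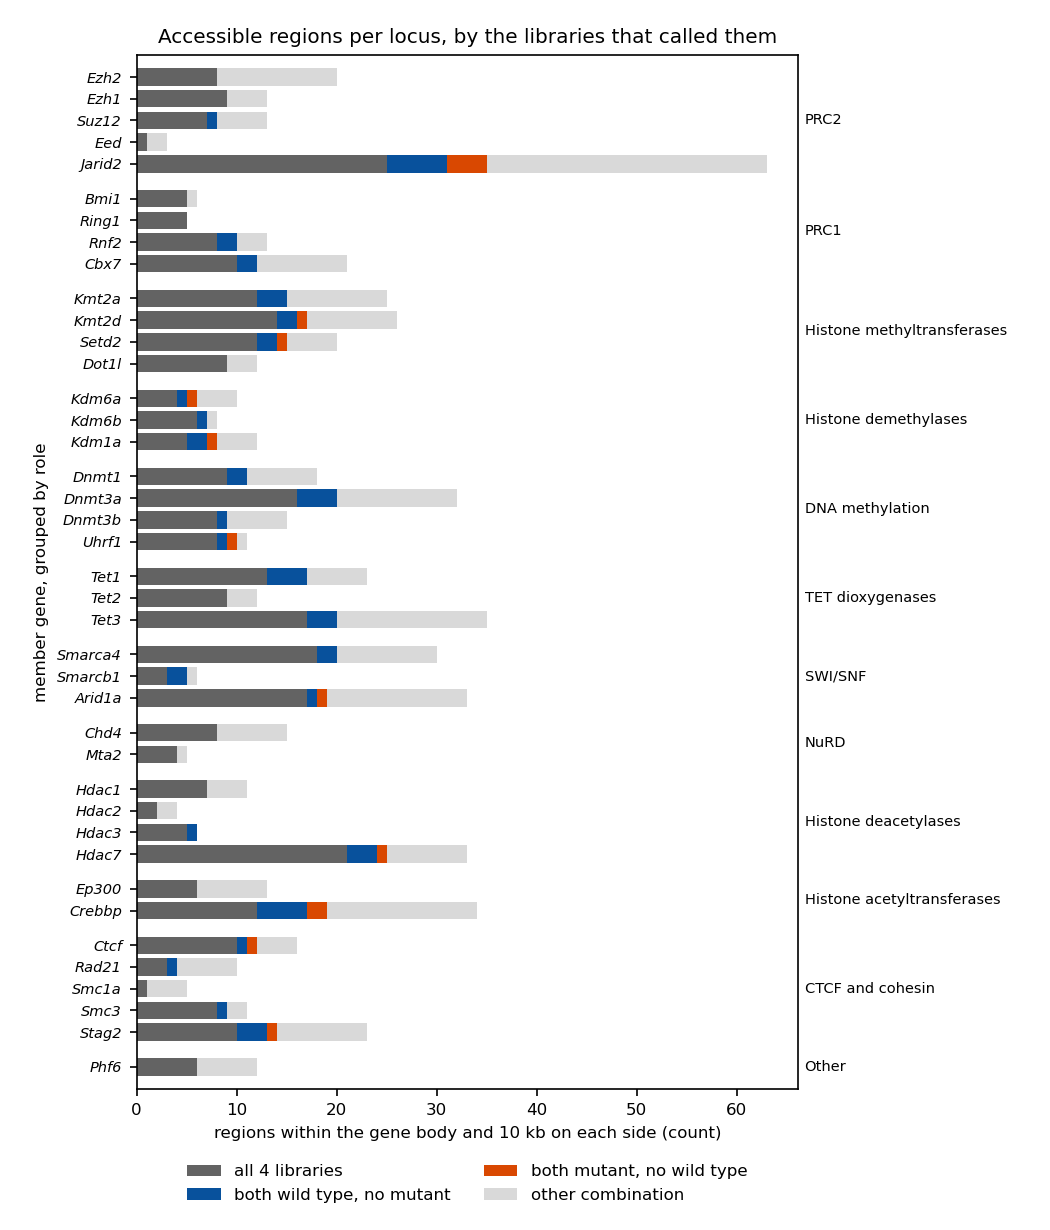
Stacked bars of the number of accessible regions (horizontal axis, count) within each gene body and 10 kb on each side, split by the libraries that called them. Jarid2 has the longest bar, with 63 regions, and Eed the shortest, with 3; blue and orange pieces are the regions of a single genotype, such as 2 of 6 at Smarcb1 and 0 of 5 at Ring1.

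The richest and poorest loci of each group show the spread. Jarid2, the longest of the 40 genes at 191 kb, had 44 and 46 peaks in wild type and 39 and 35 in mutant. Eed had 3 and 1 in wild type and 1 and 1 in mutant, and only its start region was shared by all 4. In PRC1, Cbx7 had 18, 19, 11 and 12 peaks, while Ring1 had 5 in every library, and all 5 of its regions were shared. Among methyltransferases Kmt2d had 23, 17, 17 and 15 peaks, and Dot1l, which methylates the nucleosome core, had 11, 13, 10 and 9. Among demethylases Kdm1a had 10, 12, 9 and 7, and Kdm6b 10, 10, 7 and 6. Dnmt3a had 29, 29, 21 and 19 peaks, and Uhrf1 10, 9, 9 and 9. These lists mostly show more peaks in wild type, with the genotypes overlapping at some genes.

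The remaining groups had the same kind of range. Tet3 had 31, 27, 17 and 19 peaks and Tet2 14, 13, 10 and 12. In SWI/SNF, Arid1a, a DNA-binding subunit, had 31, 27, 24 and 21, and Smarcb1 6, 5, 4 and 4. In NuRD, Chd4, the ATPase, had 11, 14, 9 and 9, and Mta2, a scaffold subunit, 5, 5, 5 and 4. Hdac7 was the densest locus, at 45.9 regions per 100 kb, with 32, 28, 25 and 24 peaks, and Hdac2 had 3, 3, 2 and 2. Crebbp had 28, 27, 18 and 18 and Ep300 9, 10, 11 and 8. Among architecture genes Stag2 had 19, 16, 15 and 16 and Smc1a 5, 4, 3 and 2. Phf6, a PHD-finger gene, had 11, 10, 6 and 9.

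Peaks at the 40 loci numbered 594 and 568 in the wild-type lists and 468 and 436 in the mutant lists. The means were 581 ± 18.4 and 452 ± 22.6 (SD, n = 2 each), a difference of 129 and a ratio of 1.29, against 1.36 over the whole lists. Their covered length went the other way, with 265.857 and 258.710 kb in wild type and 282.722 and 272.105 kb in mutant, a ratio of 0.945 against 1.0095 over whole lists. For both measures the groups did not overlap, and the exact two-sided permutation test gave p = 0.333, the smallest that 2 against 2 libraries allow. More peaks in both wild-type than in both mutant lists were found at 23 of 40 loci (57.5%), against 54.4% of protein-coding loci with a peak. The opposite was found at 0 of 40, against 0.742%. The mutant lists were built with longer smallest gaps between peaks, 293 and 349 bp against 257 and 261 bp, and their part in these counts was not tested beyond the alternative with a common gap, which gave a difference of 77.5 peaks. With lists held to equal numbers of peaks the difference in peaks turned to -55.

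The strongest regions outside any annotated gene end were found in PRC2 genes. Of 577 regions over 1 kb from any gene end, 283 were called in all 4 libraries. In Jarid2, a region of 461 bp at chr13:44869564-44870024, 138 kb into the gene, had folds of 20.98 and 20.80 in wild type and 20.74 and 23.21 in mutant. It ranked 36 and 39 from the top of the wild-type lists and 21 in each mutant list, over all peaks. Its edges were nearly the same in every list: the left edge was 44869564 in all 4, and the right edge differed by 1 bp. Over all 91466 regions with a single peak in each list, 45 (0.0492%) had both edges within 2 bp, and the Jarid2 region was the single case among 316 such regions of the 40 loci. The fold and rank of this region are given with a limit: reads and genome sequence were not used here, so whether reads map uniquely there or whether it lies in a repeat was not tested.

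Jarid2 held more regions of lower fold. Away from its start, 8 regions of the gene had a fold of 4 or more in all 4 libraries, and without the strongest they ran from 4.03 to 9.26. The second strongest, at chr13:44819098-44819874, had folds of 8.80 and 9.26 in wild type and 7.38 and 7.34 in mutant.

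**Figure D3:**
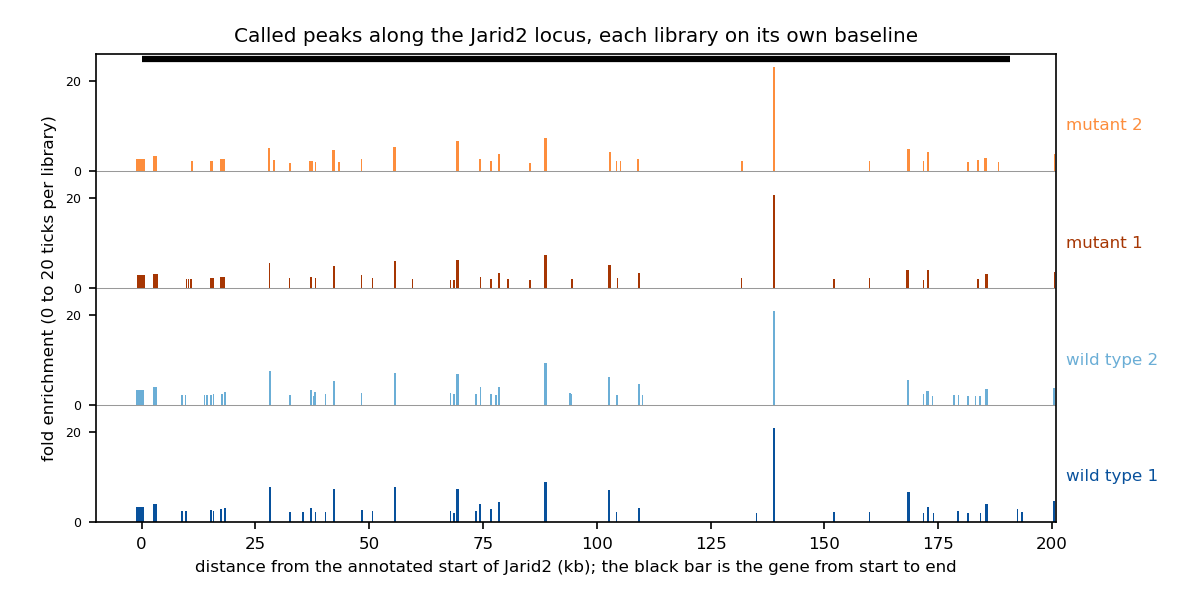
Called peaks along the Jarid2 locus by distance from its annotated start (horizontal axis, kb), drawn to width, with the height of each bar giving fold enrichment on a separate baseline for each library. A single bar near 139 kb stands over 20 in all 4 libraries, while the start peak at 0 is low and wide.

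Ordered by the lowest of the 4 folds, the next strongest distal regions were in Ezh1, Dot1l and Dnmt3b. Ezh1 had a region at chr11:101211823-101212500, 14.0 kb into the gene, with folds of 14.8 and 13.95 in wild type and 10.02 and 9.43 in mutant, and another at chr11:101200766-101201519 with 11.9, 10.8, 8.15 and 7.70. At both, each wild-type fold was above each mutant fold, and each mutant peak was wider. The widths were 412 and 360 bp in wild type against 678 and 530 bp in mutant, and 555 and 543 bp against 733 and 723 bp. The fold is an average over the peak, and a difference in it apart from width was not tested. Dot1l had chr10:80774430-80775090, 19.2 kb into the gene, with 10.2, 9.11, 8.84 and 8.90. Downstream of Dnmt3b, chr2:153694436-153695025 had 12.1, 9.24, 7.76 and 9.88, in which the genotypes overlapped. By the mean of the 4 folds, single regions of Ep300 (14.3, 12.3, 7.20 and 8.02) and Ctcf (13.3, 12.4, 8.34 and 7.49) stood above those of Dot1l and Dnmt3b. Each of these regions was called in all 4 libraries.

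Genotype-specific regions at these loci had low folds. The median of the lowest fold was 2.20 for regions only in wild type and 2.00 for those only in mutant. It was 2.94 for the regions of these loci called in all 4 libraries. Folds of genotype-specific regions over all loci were not compared. Both wild-type libraries called 463 regions, and 57 of them (12.3%) had no peak in either mutant library, against 15% of all such regions. They lay at 26 genes, 46 in gene bodies, 10 in flanks and 1 at a start. None of the regions specific to a genotype reached a fold of 4 in both of its libraries. The 11 with a fold of 2.5 or more in both wild-type libraries were at Setd2, Suz12, Hdac3, Dnmt3a, Stag2, Tet1, Cbx7, Rad21 and Kdm6a. The strongest by the weaker of its folds, at chr9:110568474-110568575 in Setd2, the methyltransferase of transcribed gene bodies, had 3.80 and 3.30. In Suz12, chr11:80026995-80027125 had 3.29 and 3.45, and a mutant peak lay 342 bp away. Hdac3, the catalytic subunit of a nuclear co-repressor complex, had 3.36 and 3.26 in a gene body region.

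The others of the 11 were as weak. Downstream of Dnmt3a, chr12:3917677-3918175 had folds of 3.17 and 3.08, and in Stag2, chrX:42164952-42165054 had 2.94 and 3.24. Tet1 had 2 such regions, with 3.03 and 2.86 at chr10:62845530-62845656 and 3.02 and 2.73 at chr10:62838170-62838290. In the flank of Cbx7, chr15:79906808-79907161 had 2.81 and 3.38, and in that of Rad21, chr15:51998225-51998930 had 2.78 and 2.82. Setd2 had a second region, chr9:110620110-110620462, at Nradd, with 2.74 and 2.52. Kdm6a had chrX:18187261-18187513 with 2.75 and 2.52. Peaks of the other genotype lay within 1 kb of 23 of the 57.

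Regions called only in mutant numbered 15 of 390 (3.85%), against 1.75% of all regions called in both mutant libraries. They were at 11 genes: 4 in Jarid2, 2 in Crebbp and 1 each in Kmt2d, Setd2, Kdm6a, Kdm1a, Uhrf1, Arid1a, Hdac7, Ctcf and Stag2. Without Jarid2 the share was 11 of 360 (3.06%). All but the one near Ctcf were in gene bodies, where the share was 5.53%. The share in gene bodies over all loci was not counted, and the 1.75% covers starts and flanks too. At the other chromatin genes the share was 40 of 1184 (3.38%), and at all protein-coding loci 1.67%. Stag2, a cohesin subunit, held the strongest, at chrX:42188929-42189609, with folds of 2.62 and 3.07, and the median of the weaker fold was 2.00. The counts were 0 of 28 regions at PRC1 loci, 0 of 40 at TET loci, 0 of 12 at NuRD loci and 0 of 6 at Phf6. These numbers of regions are too small to tell such counts from the 1.75% over all regions. With equal numbers of peaks per list, the wild-type-specific regions were 13 of 330 (3.94%, with 4.92% over all regions) and the mutant-specific ones 59 (15.2%, with 6.99% over all), so the excess of wild-type-specific over mutant-specific regions turned round.

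Start peaks were often a little wider in the mutant lists, at these genes as elsewhere. Of the 39 genes with a start peak in all 4 libraries, 23 (59.0%) had a wider one in both mutant than in both wild-type lists, against 52% of protein-coding genes. The opposite held for 3 genes, Dot1l, Tet3 and Arid1a (7.69%), against 12.9%. Among the other chromatin genes, 62 of 118 were wider in both mutant lists. At 9 of the 23 the mean mutant width was under 1.1 times the wild-type mean, and at 5 it was over 1.5 times: Kdm6b, Stag2, Hdac1, Kdm1a and Phf6. With a common joining gap and minimum length 18 genes were wider in both mutant lists.

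At 4 of the 5, all but Stag2, both wild-type lists held more peaks in the same stretch than both mutant lists. Hdac1, a class I deacetylase, had start peaks of 724 and 723 bp in wild type and 1375 and 1433 bp in mutant. Its span held 2 peaks in each wild-type list and 1 in each mutant list. Kdm1a had 1042 and 1073 bp in wild type and 2052 and 1992 bp in mutant, with 3 peaks against 1. Kdm6b had 366 and 402 bp against 2315 and 3390 bp, again with 3 peaks against 1. Phf6 had 1679 and 790 bp against 2329 bp in both mutant lists. Stag2 had 536 and 554 bp in wild type and 573 bp in mutant 1, with 2 peaks each, and 2142 bp with 1 peak in mutant 2.

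**Figure D4:**
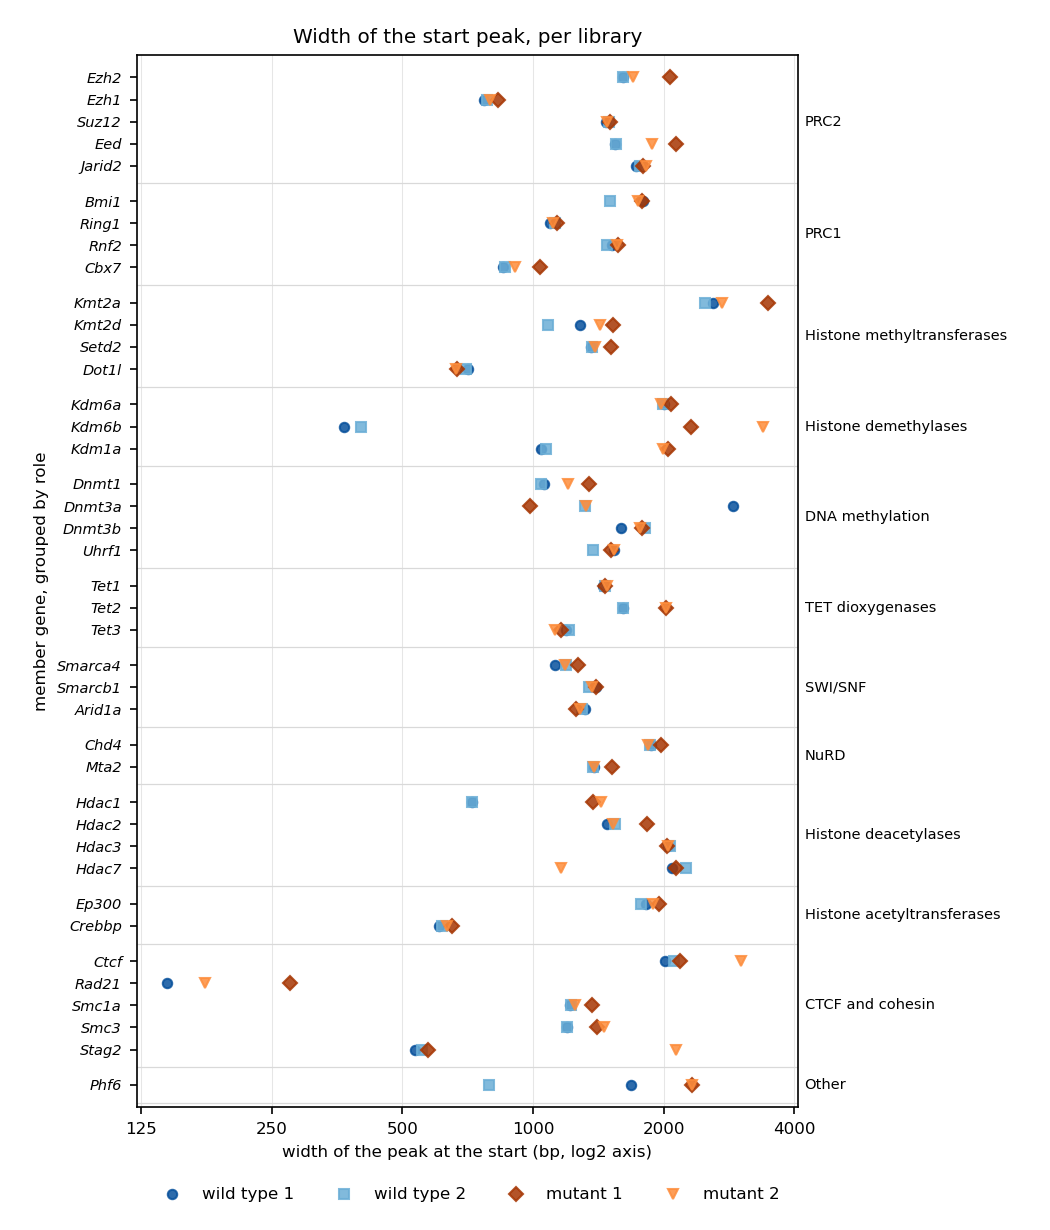
Width of the start peak (horizontal axis, bp, log2 scale) of each of the 40 genes, 1 point per library, symbols by genotype and replicate. Most genes have their 4 points close together, while at Hdac1, Kdm1a and Kdm6b both mutant points lie to the right of both wild-type points.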

How the data were processed

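ATAC-seq peak lists of 4 DN3 libraries were used, 1 list per library, on mm10 (GRCm38). The submitters' processing notes name MACS2 2.1.1, Bowtie2 2.3.3.1, cutadapt 1.16 and SAMtools 1.7. Tool settings, filters on reads and a possible shift for transposase binding are not stated in the labels or headers. The deposited score is close to 10 times the −log10 q of a peak. The deposited fold is a ratio of signal over background from the authors' caller, and the deposited −log10 p and −log10 q describe a peak within its own list. Peak lists hold no read counts, so depth is unknown, no count model or interval could be had, and where a library lacks a peak, the region was not detectable at its depth.

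The 4 lists, restricted to the autosomes, X and Y, were merged where peaks overlapped by 1 bp or more, and a region counted as called in each library with a peak inside it. A region was called only in 1 genotype when both of its libraries and neither other library had it. Genes came from a RefSeq table and starts from a RefSeq promoter table (both GRCm38.p6, the build of the files). The peak with the highest fold within 1 kb of a start was the start peak, ranked by percentile among all start peaks of the list. Libraries were compared with an exact two-sided permutation test, and other counts were described beside all regions or genes. The members and lists were chosen with earlier results of these data known. Named in full were genes lacking a start peak, regions of 1 genotype with a fold of 2.5 or more, the richest and poorest locus of each role, the 5 strongest and 5 weakest start peaks, and the 5 strongest distal regions. Single regions or values named outside this rule were chosen after they were seen. Alternatives were a fold of 4, a −log10 q of 5, equal numbers of peaks, 50% cover, flanks of 0 and 50 kb, a common joining gap and minimum length, start distances of 0 and 5 kb, and leaving out each library. The code was tested on simulated lists. Python 3.11.15, numpy 2.4.6, pandas 2.3.3 and matplotlib 3.10.9 were used.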

Additional observations from a re-analysis of the deposited data

How the results depend on the processing

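Under the alternatives, 27 to 40 genes had a start peak in all 4 libraries, 39 or 40 without any single library and 27 where a fold of 4 was asked. The share of all protein-coding genes was not counted under these alternatives. Regions called only in wild type, 57 as reported, numbered 23 at a fold of 4 (15.8%, with 19.7% over all regions). They numbered 27 at a −log10 q of 5 (9.51%, with 10.3%) and 13 with equal numbers of peaks (3.94%, with 4.92%). With 50 kb flanks there were 138 (14.95%, with 14.96%), and 75 to 132 when 1 library was left out. Their share was under that of all regions in every setting except without wild type replicate 1 (21.05%, with 21.03%). The fold and q limits dropped weaker peaks from every list before regions were called. A region counted there can thus have a weaker peak in the other genotype. None of the reported regions of either genotype reached a fold of 4 in both libraries, so those counted at a fold of 4 are other regions. Regions called only in mutant, 15 as reported, numbered 2 at a fold of 4, 8 at a −log10 q of 5, 59 with equal numbers of peaks and 40 with 50% cover, and 20 to 43 without 1 library. Their share stayed above that of all regions in each of these settings, most narrowly at a fold of 4 (1.90% against 1.55%). Both differences between genotypes changed sign under 1 setting each. The difference in peaks at the loci, 129, turned to -55 with equal numbers of peaks and was 113 to 145 without 1 library. The difference in covered length, -15.1 kb, turned to 9.54 kb at a fold of 4 and was -20.4 to -9.82 kb without 1 library. Genes with a wider start peak in both mutant lists, 23 as reported, numbered 18 to 29 under alternatives chosen after seeing the data. The cause of these changes was not tested. Fewer peaks or fewer libraries follow from the construction of the thresholds and of leaving out a library. Replicate numbers shared by the genotypes showed no pairing in the calls (r = -0.0065 over regions for being called in replicate 1 and not 2). This correlation cannot show whether libraries of the same number were prepared together, which the labels do not give. The fit with the replicate block gave the same 129 peaks and -15.1 kb, with an exact permutation p of 0.5, the smallest it allows.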
